A study of Drosophila melanogaster with 12 samples.

Results

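In the *Drosophila* embryo, 25 messages had less than 0.5 times as much miCLIP as mRNA-seq signal in each of 3 consecutive timepoints. They were chosen from a table of 14977 genes by their values in T3, T4 and T5. Each member had an mRNA-seq FPKM (reads on a gene scaled for its length and the depth of the library) of at least 10 in each of these timepoints. Each member also had a ratio of miCLIP to mRNA-seq, taken with 1 FPKM added to both values, below 0.5 in all of them. The expression threshold left 3931 genes, of which 30 (0.763%) met the ratio. Among these, 5 were dropped by their symbols, which were RpL11, RpL27, RpL32, mRpS31 and snoRNA:Psi18S-531. The T3 to T5 ratios are therefore given as a description of how the genes were selected, whereas those of T1, T2 and T6 and the structure of the genes did not enter the choice.

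*N*6-methyladenosine (m6A) is an internal mark placed on messages by a nuclear writer complex around Mettl3 and Mettl14, and it is read by YTH-domain proteins. In miCLIP, ultraviolet light links RNA fragments to an anti-m6A antibody, with which they are precipitated. The reads on a gene depend on how much of its message there is and on how much of it the antibody holds, so that mRNA-seq of the same RNA serves as the reference. A low ratio means less miCLIP than mRNA-seq signal on a message, with each signal scaled within its own library. It is not a direct measure of antibody binding or a count of methylated adenosines.

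Embryos were collected in bulk over 6 timepoints. T1 (0 to 45 min) and T2 (45 to 90 min) mostly hold maternal RNA. Collection T3 lasted from 1.5 until 6 h, T4 until 12 h, T5 until 18 h and T6 until 24 h, and these follow the onset of zygotic transcription. Aliquots of the same poly(A) RNA went into 1 miCLIP library, made with the Abcam anti-m6A antibody, and 1 mRNA-seq library per timepoint, which gives 12 libraries. The embryos were untreated and taken whole, described as Canton S in the growth protocol and as yw in the strain entry of the same records. With 1 library per assay and timepoint there is no replicate, so each difference describes these libraries and no test was made.

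The mRNA-seq libraries held 23127955 to 25486971 reads on genes and the miCLIP libraries 4251686 to 14484576, as inferred from the smallest increments of the FPKM values. Stage markers mostly followed the labels in mRNA-seq. The maternal *osk* was at 228 FPKM in T1 and 0.978 in T6, the zygotic *twi* was at 7.30 in T1 and 54.6 in T3, and the muscle gene *Mlc2* was at 3546 in T6. Not all did, since *gcl*, taken as a maternal marker, was at 76.6 FPKM in T1, 30.5 in T3 and 106 in T5. The late marker *elav* was highest in T4, at 49.7 FPKM, and at 9.57 in T6. The egg-shell genes *Vm26Aa*, *Vm32E* and *Cp36* were at most at 0.226 FPKM in every mRNA-seq library. The T6 pair stood apart from the others, whose own miCLIP and mRNA-seq libraries correlated at 0.586 to 0.835 across genes. Over the 6836 genes with an mRNA-seq FPKM of at least 10 in T6, T6 miCLIP had a Spearman correlation across genes of 0.393 with T6 mRNA-seq and of 0.750 with T5 mRNA-seq, and 462 of these genes were listed at 0 in T6 miCLIP. Values of T6 are therefore also given against T5 mRNA-seq where they matter.

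Within the 3 timepoints used for the choice, the median ratio of the 25 members was 0.420 in T3, 0.446 in T4 and 0.335 in T5. All 25 were below 0.5 there by construction, whereas 7.72% of genes with an mRNA-seq FPKM of at least 10 were below it in T3, 7.73% in T4 and a higher share, 21.1%, in T5. The ratios of single members lay between 0.0240 and 0.49960. The 3 members closest to the threshold were CG3209, with a highest ratio of 0.49960 in T4, CG11208, with 0.498 in T4, and dbe, with 0.497 in T5. Just outside lay CG8993, with 0.501 in T3, FKBP59, with 0.502 in T4, and CG2453, with 0.503 in T3. Exact 95% intervals of the ratio without the added FPKM, which cover counting error only, had upper bounds below 0.5 in T3, T4 and T5 for 7 of the 25 members. For CG3209 in T4 the interval was 0.436 to 0.546, for CG11208 in T4 0.420 to 0.553 and for dbe in T5 0.408 to 0.568, so each spanned 0.5. The 7 were Bet5, CG4957, CR42491, Spase12, CG10516, CHOp24 and ATPsynO.

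**Figure D1:**
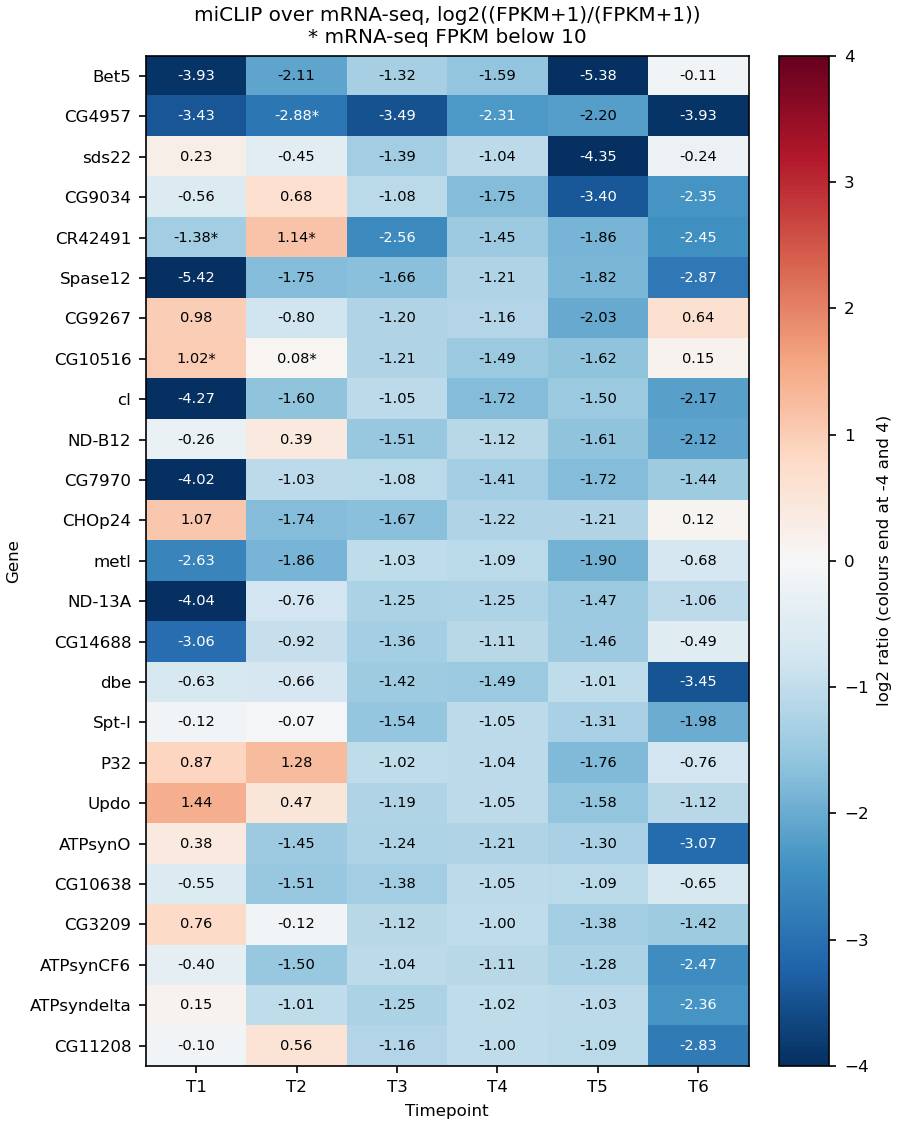
The log2 ratio of miCLIP to mRNA-seq of each of the 25 members (rows, ordered by their mean over T3 to T5) in the 6 timepoints (columns), with 1 library per assay and timepoint and 1 FPKM added to both values. An asterisk marks an mRNA-seq FPKM below 10. The T3 to T5 columns are below -1 in every row because they chose the genes, whereas T1 runs from -5.42 (Spase12) to 1.44 (Updo).

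**Figure D2:**
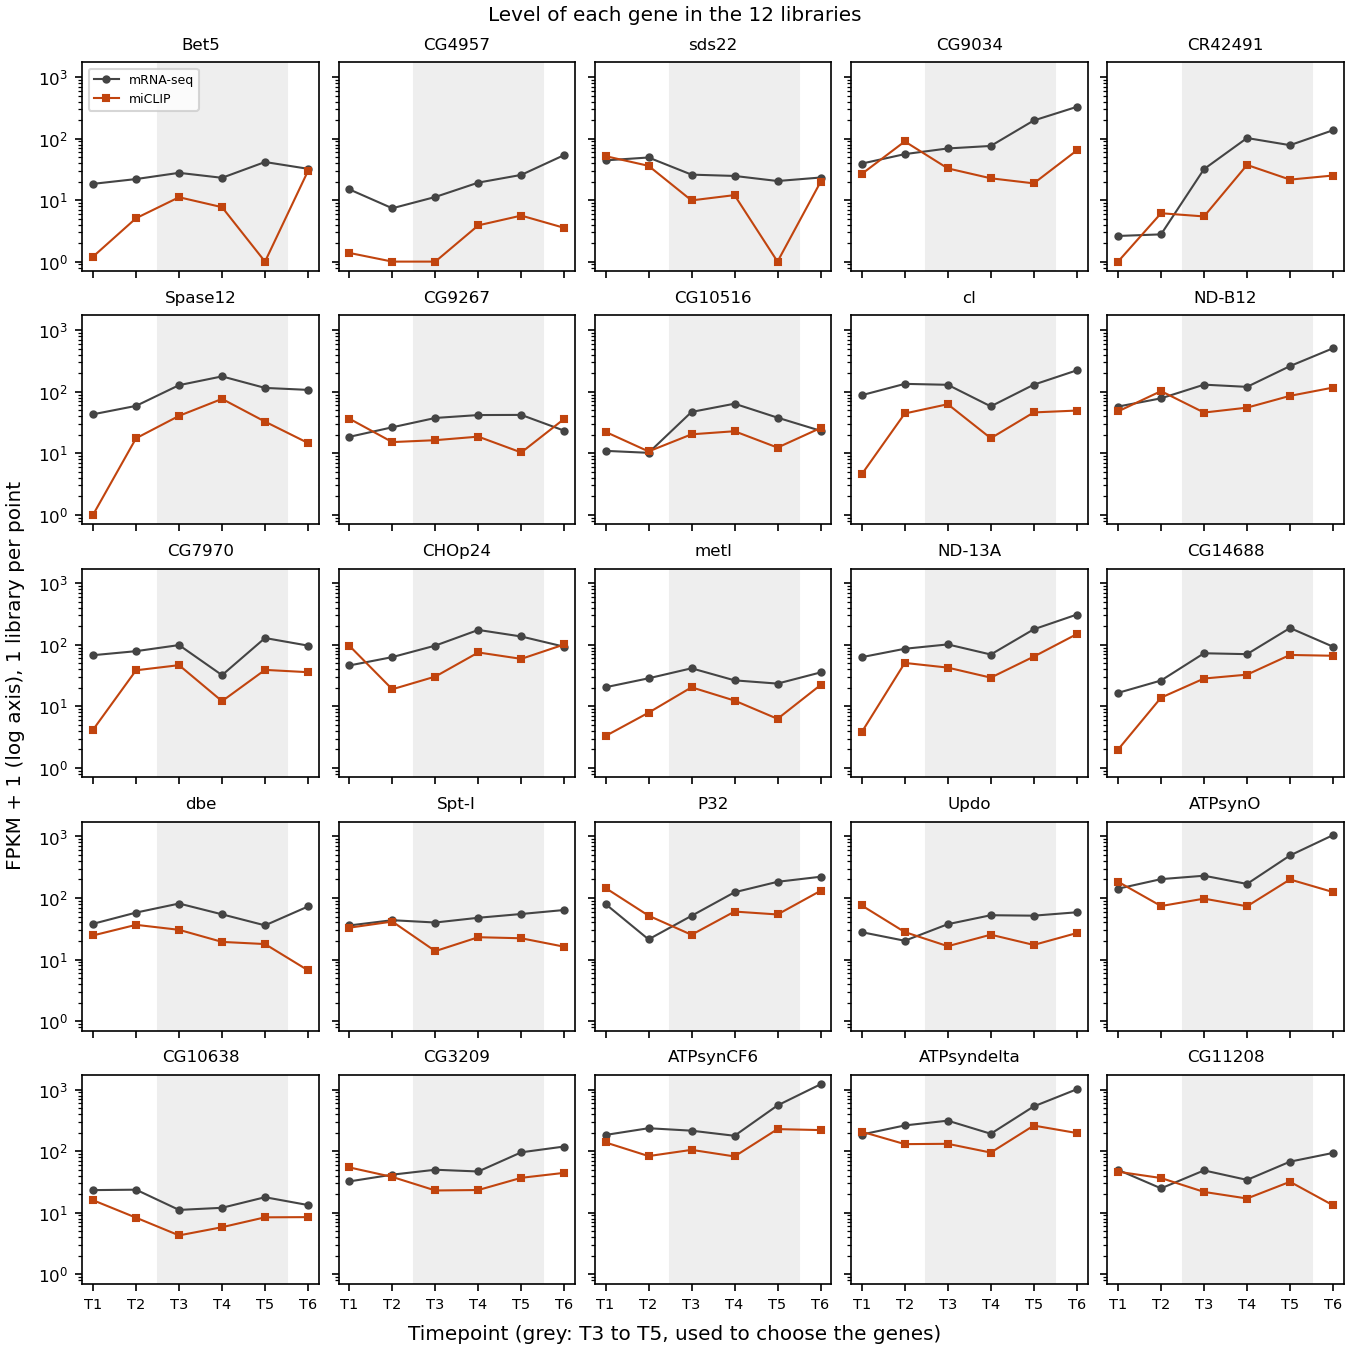
FPKM + 1 on a log axis in mRNA-seq (circles) and miCLIP (squares) for each member over the 6 timepoints, 1 library per point, with T3 to T5 shaded. The curves lie apart in the shaded timepoints by the choice of genes, and outside them they meet or cross in several members, among them CHOp24, CG9267, P32 and Updo.

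Messages of the mitochondrial respiratory chain were the only list with at least 3 members. The respiratory chain passes electrons through complexes I to IV of the inner membrane and pumps protons, which the ATP synthase uses to make ATP. Nuclear genes encode most subunits, many of them small proteins. From a list of 93 genes of these complexes, the mitochondrially encoded COX1, COX2 and COX3 included, 72 passed the expression threshold and 5 were members. Members made up 0.636% of all 3931 genes above the threshold. The lists were written with earlier results of these data known, so the count is a description. ND-13A and ND-B12 encode accessory subunits of complex I. ATPsynO encodes the subunit that confers oligomycin sensitivity, ATPsynCF6 encodes coupling factor 6, and both are parts of the peripheral stalk of the ATP synthase. ATPsyndelta encodes a subunit of its central stalk. A further member, CG9034, is annotated as NdufA3, another accessory subunit of complex I, and its symbol in the table kept it out of the list.

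ATPsynO was at 141, 202, 229, 168, 490.4 and 1050.5 FPKM from T1 to T6 in mRNA-seq. Its miCLIP signal was 183, 73.0, 96.6, 72.3, 199 and 124 FPKM from T1 to T6. The mRNA-seq values were lowest in T1 and highest in T6, and miCLIP exceeded mRNA-seq in T1 only. Its ratio was 1.30, 0.365, 0.424, 0.433, 0.407 and 0.119 from T1 to T6, and the interval of the T6 value, without the added FPKM, was 0.109 to 0.128. Against T5 mRNA-seq, the T6 log2 ratio was -1.98 in place of -3.07.

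For ATPsynCF6, mRNA-seq gave 182, 235, 214, 177, 552 and 1219 FPKM from T1 to T6. The miCLIP values were 137, 82.1, 104, 81.0, 227 and 219 FPKM from T1 to T6. This message was the most abundant of the members in T6, and its miCLIP level was lower than its mRNA-seq level in all 6 timepoints. The ratio was 0.755 in T1 and 0.180 in T6, with an interval of 0.167 to 0.193.

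ATPsyndelta had mRNA-seq levels of 185, 261, 312, 191, 532 and 1011 FPKM from T1 to T6. Its miCLIP levels were 206, 129, 130.5, 93.7, 259 and 196 FPKM from T1 to T6. The T2 to T6 ratios were all below 0.5, and that of T6 was the lowest at 0.195. On the opposite strand, the exons of another gene, CG2962, cover 35.6% of the merged exons of its annotated transcripts. The mRNA-seq libraries were stranded, the strand setting of the counting is not given in the sources used here, and reads from a gene and its antisense partner may then not be told apart.

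Among the complex I members, ND-B12 was at 56.3, 77.1, 129, 119, 259.8 and 507 FPKM from T1 to T6 in mRNA-seq and had miCLIP levels of 46.9, 101, 44.8, 54.1, 84.6 and 116 FPKM from T1 to T6. Its miCLIP level exceeded the mRNA-seq level in T2, where the ratio was 1.31. ND-13A was at 62.1, 85.4, 101, 68.7, 178 and 309 FPKM from T1 to T6 in mRNA-seq and had miCLIP levels of 2.83, 49.8, 41.7, 28.3, 63.4 and 148 FPKM from T1 to T6. Only 14 miCLIP reads fell on it in T1, which gave the lowest ratio of the 6 respiratory messages there, 0.0606. In T6 its ratio was just below the threshold, at 0.481 with an interval of 0.431 to 0.532, and against T5 mRNA-seq the log2 ratio was -0.26.

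CG9034 had the widest spread of ratios among these messages. It was at 38.2, 54.9, 68.1, 74.9, 196 and 327 FPKM from T1 to T6 in mRNA-seq. Its miCLIP levels were 25.6, 88.8, 31.8, 21.6, 17.7 and 63.1 FPKM from T1 to T6. The ratio was above 1 in T2 (1.61) and below 0.1 in T5, where 66 miCLIP and 1705 mRNA-seq reads gave 0.0950.

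All 6 respiratory messages, CG9034 included, were over 2-fold higher in T6 than in T3 mRNA-seq, by 3.05-fold for ND-13A to 5.67-fold for ATPsynCF6. In miCLIP the same step ran from 1.28-fold for ATPsynO to 3.50-fold for ND-13A, and it was over 2-fold in 3 of 6, against 46 of 72 genes of the list and 18.1% of all 3931 genes. The higher T6 level in mRNA-seq was shared by the list, since 71 of its 72 genes above the threshold were over 2-fold higher, whereas 21.8% of all 3931 genes were. In RNA of whole embryos, more cells of a type and more RNA per cell cannot be told apart. T6 ratios below 0.5 were frequent in the list against T6 mRNA-seq, and less so against T5 mRNA-seq. Of its 73 genes with an mRNA-seq FPKM of at least 10 in T6, 59 were below 0.5, with a median ratio of 0.334, against 40.2% of the 6836 genes and a median of 0.656. By complex, this held for 27 of 32 genes of complex I, 2 of 4 of complex II, 8 of 11 of complex III with cytochrome c, 9 of 12 of complex IV and 13 of 13 of the ATP synthase. NP15.6, at 0.512, was assigned to none of these groups by its symbol. The list also held short messages, with a median transcript length of 787 nt over its 69 annotated genes above the threshold in T3 to T5. The median of other genes above it was 1949 nt. In the shortest of 4 groups of genes by length, 59.6% of 1695 were below 0.5 in T6. The part of length in the share of the list was not tested. Other lists ran both ways in T6, with 19 of 21 V-ATPase and 10 of 12 glycolysis genes below 0.5, but 9 of 33 translation factors. T6 miCLIP was also set against T5 mRNA-seq. On this scale 22 of 73 genes of the respiratory list (30.1%) were below 0.5, against 25.8% of 6687 genes. Without its members, 18 of 68 genes of the list (26.5%) were. Of the 3906 non-members above the expression threshold in T3 to T5, 14.7% were. The 22 genes were 10 of 32 genes of complex I, 0 of 4 of complex II, 3 of 11 of complex III with cytochrome c, 1 of 12 of complex IV and 8 of 13 of the ATP synthase. Of the 6 members, 5 were below 0.5 on this scale, ND-13A being the exception, but their T5 mRNA-seq level is a value that chose them.

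In the timepoints that chose the members, the respiratory list as a whole lay between the members and all genes. Its median ratio, members included, was 0.675 in T3, 0.739 in T4 and 0.579 in T5, against 0.860, 0.918 and 0.844 over all genes with an mRNA-seq FPKM of at least 10. The share of the list below 0.5 was 15.3% in T3, 9.59% in T4 and, at its highest, 28.8% in T5. The ATP synthase genes were lowest in T5, with 8 of 13 below 0.5. In T1 the median ratios of the list and of all genes were 1.07 and 1.03, and in T2 they were 0.741 and 0.930, with 22.2% of the list and 13.8% of all genes below 0.5 in T2. The list also held messages with far more miCLIP than mRNA-seq signal. COX1, COX2 and COX3, the cytochrome oxidase subunits encoded in the mitochondrial genome, had ratios of 10.01, 9.95 and 5.90 in T3, and they were over 2-fold higher in miCLIP in each timepoint.

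**Figure D3:**
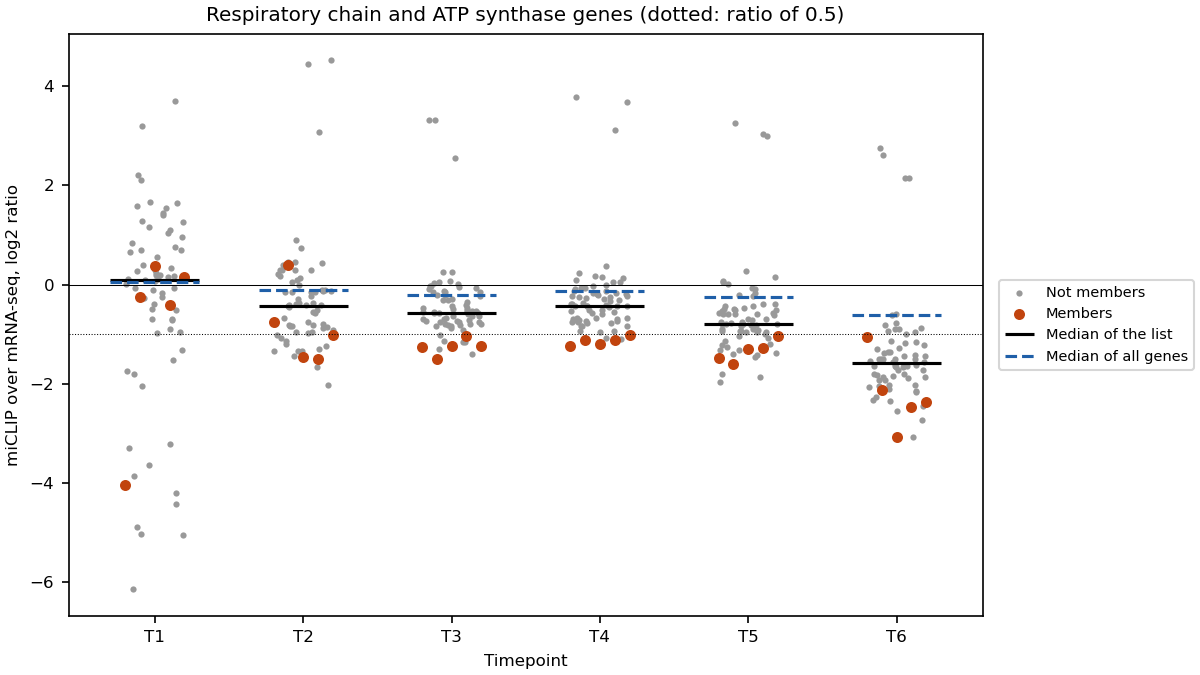
The log2 ratio of miCLIP to mRNA-seq in each timepoint for the genes of the respiratory list with an mRNA-seq FPKM of at least 10 there (1 point per gene and 1 library per assay), with the 5 members enlarged. Solid lines are medians of the list and dashed lines those of all genes; the list's T6 median ratio was 0.334, against 0.656 for all genes.

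A further 3 members encode a mitochondrial protein, an enzyme of haem synthesis and a methyltransferase. P32 encodes a mitochondrial matrix protein whose human counterpart is C1QBP. It was at 78.7, 20.2, 50.3, 123, 182 and 220.4 FPKM from T1 to T6 in mRNA-seq. The miCLIP signal was at 144, 50.6, 24.2, 59.2, 53.0 and 129.7 FPKM from T1 to T6. The miCLIP level was above the mRNA-seq level in T1 and T2 and below it from T3 on. The ratio was 1.82 in T1 and 2.43 in T2, where the interval was 2.19 to 2.85. It was 0.492, 0.486 and 0.294 from T3 to T5, and 0.590 in T6. A ratio above 2 was seen in 6.29% of 5107 genes in T2, and P32 was the 1 such member among 22 with an mRNA-seq FPKM of at least 10 there.

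Updo encodes uroporphyrinogen decarboxylase, an enzyme of haem synthesis. Its mRNA-seq levels were 26.8, 19.2, 36.5, 51.5, 50.6 and 57.6 FPKM from T1 to T6. The miCLIP levels were 74.5, 26.9, 15.5, 24.3, 16.3 and 25.9 FPKM from T1 to T6. The ratio was highest in T1 at 2.72, with an interval of 2.56 to 3.02. It was 1.38 in T2 and remained between 0.335 and 0.483 from T3 to T6. In T1, 18.3% of 5303 genes had a ratio above 2, and 2 of 23 members did, Updo and CHOp24.

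The gene metl encodes a relative of METTL2, which in mammals methylates cytidine in transfer RNA. It was at 19.5, 27.6, 40.6, 25.5, 22.4 and 34.6 FPKM from T1 to T6 in mRNA-seq and at 2.30, 6.90, 19.4, 11.4, 5.27 and 21.2 FPKM from T1 to T6 in miCLIP. Both levels were low, and the ratio was lowest in T1 (0.161) and highest in T6 (0.624).

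Several members serve the secretory pathway. A list of 32 genes for translocation and glycosylation held 30 above the threshold, of which Spase12 was the 1 member. Spase12 encodes a small subunit of the signal peptidase, which removes signal peptides in the endoplasmic reticulum. It was at 42.0, 57.8, 127, 176, 114 and 106 FPKM from T1 to T6 in mRNA-seq. Its level in miCLIP was 0, 16.5, 39.5, 75.4, 31.6 and 13.7 FPKM from T1 to T6. The ratio was below 0.5 in all 6 timepoints. With no miCLIP read and 791 mRNA-seq reads in T1, miCLIP was at least 59.0-fold lower there, on a floor of 3 reads. Exons of CG2006 on the opposite strand cover 100% of its annotated transcript, so that the reads of both may not be told apart. Among the other genes of this list with an mRNA-seq FPKM of at least 10, 1 of 29 was below 0.5 in T6, whereas 15 of 30 were in T5, against 21.1% of all genes, and 3 of 29 in each of T3 and T4.

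CHOp24 encodes a member of the p24 family of cargo receptors in transport vesicles. Its mRNA-seq levels were 45.2, 62.2, 96.2, 174, 136 and 92.2 FPKM from T1 to T6. The miCLIP levels were 95.9, 18.0, 29.5, 74.2, 58.2 and 100.5 FPKM from T1 to T6. The ratio was above 1 in the first and last timepoints, at 2.10 in T1 and 1.09 in T6, and it was 0.300 in T2. With T5 mRNA-seq as the reference, the T6 log2 ratio was -0.43 in place of 0.12. Bet5, in yeast a subunit of the TRAPP tethering complex, was at 17.4, 21.0, 26.7, 22.0, 40.6 and 31.2 FPKM from T1 to T6 in mRNA-seq. In miCLIP it was at 0.205, 4.07, 10.1, 6.67, 0 and 28.8 FPKM from T1 to T6. The low mean ratio of Bet5 over T3 to T5, the lowest of the members, rests on T5. No miCLIP read and 451 mRNA-seq reads were recovered there, so that miCLIP was at least 64.4-fold lower on the floor of 3 reads, whereas 78 miCLIP reads in T6 gave a ratio of 0.924. In T5 miCLIP, 67 of the 6687 genes with an mRNA-seq FPKM of at least 10 were listed at 0.

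A further group encodes enzymes of lipid metabolism. Spt-I encodes a subunit of serine palmitoyltransferase, the first enzyme of sphingolipid synthesis. It was at 34.8, 42.6, 38.9, 46.7, 53.9 and 62.8 FPKM from T1 to T6 in mRNA-seq. The miCLIP levels were 31.9, 40.4, 12.7, 22.0, 21.1 and 15.1 FPKM from T1 to T6. Its ratios in T1 and T2, 0.920 and 0.951, were close to 1, and that of T6, 0.253, was below each of T3 to T5. Exons of the antisense RNA gene asRNA:CR45142 cover 99.5% of the merged exons of its annotated transcripts.

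CG3209, annotated as the glycerol-3-phosphate acyltransferase Gpat4, was at 31.2, 40.5, 48.8, 45.7, 94.7 and 118 FPKM from T1 to T6 in mRNA-seq and at 53.4, 37.1, 21.9, 22.3, 35.8 and 43.4 FPKM from T1 to T6 in miCLIP. It changed from a ratio of 1.69 in T1 to 0.373 in T6. CG11208, annotated as the 2-hydroxyacyl-CoA lyase Hacl, was at 48.6, 23.8, 47.6, 33.1, 66.4 and 92.5 FPKM from T1 to T6 in mRNA-seq and at 45.2, 35.5, 20.7, 16.0, 30.8 and 12.2 FPKM from T1 to T6 in miCLIP. Its ratio was above 1 in T2 (1.47) and lowest in T6 (0.141), where miCLIP was also the lowest of its 6 values.

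CG9267, annotated as the 3-hydroxyacyl-CoA dehydratase Hacd2, acts in the elongation of fatty acids. It was at 17.5, 25.4, 36.4, 40.7, 41.0 and 22.2 FPKM from T1 to T6 in mRNA-seq. Its miCLIP signal was 35.5, 14.2, 15.3, 17.6, 9.28 and 35.3 FPKM from T1 to T6. The order of the assays was the reverse in T1 and T6, with ratios of 1.97 and 1.56, the latter the highest T6 ratio of the members. Against T5 mRNA-seq the T6 log2 ratio was -0.21 in place of 0.64. CG14688, annotated as Phyhd1, belongs to the family of phytanoyl-CoA dioxygenases. Its ratios were 0.120, 0.527, 0.388, 0.465, 0.365 and 0.712 from T1 to T6, on mRNA-seq levels between 15.6 FPKM in T1 and 187 in T5.

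Among members with other known roles, cl encodes a thioredoxin-like protein named for its eye colour phenotype. It was at 86.8, 133, 129, 56.8, 129 and 221 FPKM from T1 to T6 in mRNA-seq. The miCLIP signal was at 3.56, 43.3, 61.6, 16.5, 45.1 and 48.4 FPKM from T1 to T6. Its ratio was below 0.5 in all 6 timepoints, and lowest in T1 at 0.0519. The gene dbe encodes a factor of ribosomal RNA processing, and its ratio was 0.648, 0.632, 0.374, 0.356, 0.497 and 0.0917 from T1 to T6. Its mRNA-seq level in T6, 71.8 FPKM, was close to that of T3, 80.3, and its miCLIP level in T6 was 5.67 FPKM, from 34 reads.

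The gene sds22 encodes a regulatory subunit of protein phosphatase 1. It was at 43.2, 48.2, 24.9, 23.7, 19.4 and 22.3 FPKM from T1 to T6 in mRNA-seq. Its miCLIP levels were 50.8, 35.1, 8.88, 11.0, 0 and 18.7 FPKM from T1 to T6. Like Bet5, it was listed at 0 in T5 miCLIP, where 516 mRNA-seq reads put miCLIP at least 73.6-fold lower, and its ratio in T6 was 0.845. The ratio was also above 0.5 in T1 and T2, and in T4 it was 0.488, with an upper bound of 0.572. Exons of the antisense RNA gene asRNA:CR44160 cover 30.9% of the annotated transcript of sds22, so that the reads of both may not be told apart. CG10638, an aldo-keto reductase, was the least abundant member, with mRNA-seq levels between 10.1 FPKM in T3 and 22.6 in T2, and its ratio was 0.685, 0.351, 0.385, 0.484, 0.471 and 0.636 from T1 to T6.

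No role is given here for 4 members. CG4957 had the lowest miCLIP level of them. It was at 13.9, 6.36, 10.2, 18.2, 24.7 and 53.0 FPKM from T1 to T6 in mRNA-seq. Its level in miCLIP was 0.384, 0, 0, 2.88, 4.60 and 2.54 FPKM from T1 to T6. No miCLIP library held more than 35 reads of it, and T2 and T3 held none. In T3, with 282 mRNA-seq reads, miCLIP was at least 49.6-fold lower on the floor of 3 reads. In T1, 3 miCLIP reads gave a ratio without the added FPKM of 0.0275, with an interval of 0.00566 to 0.0810. No other annotated gene shares an exon with it, and its ratio was below 0.5 in all 6 timepoints, as it was for Spase12, cl and CG7970 alone among the other members.

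CG7970 was at 66.9, 77.9, 98.2, 31.2, 128 and 96.2 FPKM from T1 to T6 in mRNA-seq and at 3.17, 37.6, 45.8, 11.2, 38.2 and 34.9 FPKM from T1 to T6 in miCLIP. Both assays were lower in T4 than in T3 and T5, and the T4 ratio was 0.378. CG10516 was at 9.93, 9.15, 45.9, 62.9, 36.9 and 22.2 FPKM from T1 to T6 in mRNA-seq. In miCLIP it was at 21.2, 9.69, 19.3, 21.8, 11.3 and 24.7 FPKM from T1 to T6. Its mRNA-seq level was highest in T4 and its miCLIP level in T6, and the ratio was 2.03 in T1, on an mRNA-seq level below 10, and went from 0.433 in T3 to 1.11 in T6. With T5 mRNA-seq as the reference, the T6 log2 ratio was -0.56 in place of 0.15.

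CR42491 is the 1 member annotated as non-coding. It was at 1.61, 1.77, 30.9, 101, 77.1 and 136 FPKM from T1 to T6 in mRNA-seq. Its miCLIP signal was 0, 5.11, 4.42, 36.3, 20.5 and 24.1 FPKM from T1 to T6. In T1 and T2 its mRNA-seq level was below 2 FPKM, and its ratio was 0.170, 0.365 and 0.275 from T3 to T5, and 0.184 in T6. Exons of RpL22, a ribosomal protein gene, cover 50.5% of its annotated transcript on the same strand, so its reads may be split with that gene.

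Outside the timepoints of the choice, the members lay lower than all genes in T2. Of 22 members with an mRNA-seq FPKM of at least 10, 10 (45.5%) had a ratio below 0.5, against 13.8% of 5107 genes, and the medians were 0.551 and 0.930. The lowest ratios were those of Bet5 (0.231), metl (0.276) and Spase12 (0.298), and the highest those of P32, CG9034 and CG11208. Members and all genes overlapped, since 5 of the 22 members had a ratio above 1.

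In T1, 8 of 23 members (34.8%) were below 0.5, against 26.8% of 5303 genes. This share was near the background. The median ratio was 0.755, against 1.03. The 8 members were far below the threshold, with ratios from 0.0233 for Spase12 to 0.161 for metl, and the other 15 lay between 0.648 for dbe and 2.72 for Updo. Of the genes with an mRNA-seq FPKM of at least 10, 160 were listed at 0 in T1 miCLIP.

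In T6, 16 of 25 members (64.0%) were below 0.5, against 40.2% of 6836 genes, and the medians were 0.370 and 0.656. The 6836 genes include some below the expression threshold in T3 to T5. Of 3741 non-members that also passed that threshold, 27.5% were below 0.5 in T6, with a median of 0.836. Among the members, CG4957 (0.0655), dbe (0.0917) and ATPsynO (0.119) were lowest. CG9267, CG10516 and CHOp24 were above 1, and no member was above 2, against 11.4% of all genes. Against T5 mRNA-seq the T6 log2 ratios of CG9267, CG10516 and CHOp24 were -0.21, -0.56 and -0.43. Without the 5 members of the respiratory list, 11 of 20 were below 0.5, with a median of 0.416. With T5 mRNA-seq in the place of T6 mRNA-seq, the T6 miCLIP value was below 0.5 for 16 of 25 members, and for 25.8% of genes with a T5 mRNA-seq FPKM of at least 10. The T5 mRNA-seq level helped to choose the members, so nothing is read from this difference. Over all timepoints, 7 members were below 0.5 in each of T2 to T6 and 16 in each of T3 to T6.

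**Figure D4:**
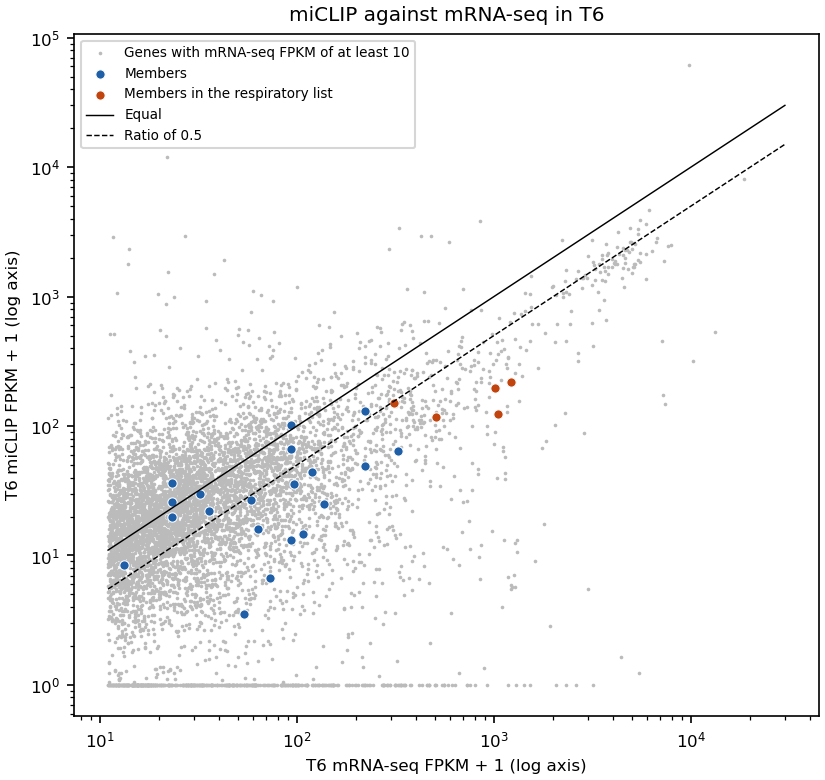
FPKM + 1 of T6 miCLIP against T6 mRNA-seq, both on log axes, for the 6836 genes with an mRNA-seq FPKM of at least 10 (grey) and the 25 members (coloured), 1 library per assay. The solid line marks equal values and the dashed line a ratio of 0.5; 16 members lie below the dashed line and 3 above the solid line.

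The members were short messages. The median annotated transcript length was 1172 nt, against 1949 nt for 3697 other genes with an mRNA-seq FPKM of at least 10 in T3 to T5, and 22 of 25 members were shorter than that median. The coding region, known for 24 members, had a median of 777 nt (259 codons) against 1314 nt, and the 3′ UTR one of 136 nt against 298 nt. The 5′ UTR differed less, at 127.5 nt against 161 nt. The shortest coding regions were those of CG9034 (77 codons), Spase12 (98), ATPsynCF6 (106), ND-B12 (110), and cl and ND-13A (126 each). CG11208 (568 codons), CG3209 (537), Spt-I (468), CG9267 (371) and Updo (356) had the longest. The median was 3 exons, against 4. The 3 members above the median transcript length were CG11208 (1984 nt), CG3209 (1985 nt) and ATPsyndelta, with 3817 nt, of which 3232 nt are annotated as 3′ UTR.

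Short messages had lower ratios in general. When the 3931 genes, as far as annotated, were split into 4 groups of equal size by transcript length, the shortest group held 14 members, the next 8, the third 2 and the longest 1. Among all genes with an mRNA-seq FPKM of at least 10, the share below 0.5 went from 15.3% in the shortest to 0.644% in the longest of 4 such groups in T3, and from 59.6% to 18.0% in T6. Over transcripts up to the median length, 53.8% of 3385 genes were below 0.5 in T6, against 13 of 22 members (59.1%). In T2 this was 22.5% of 2530 genes, against 9 of 19 members (47.4%), and in T1 33.8% of 2627 genes, against 8 of 20 (40.0%). Against all messages of like length in the same timepoint, the T6 and T1 shares of the members were thus near the background. The T2 share lay above it. These messages include genes below the expression threshold in T3 to T5, which the members had to pass. Over all lengths, 27.5% of the 3741 non-members that passed it were below 0.5 in T6. The part of length in these ratios was not tested.

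**Figure D5:**
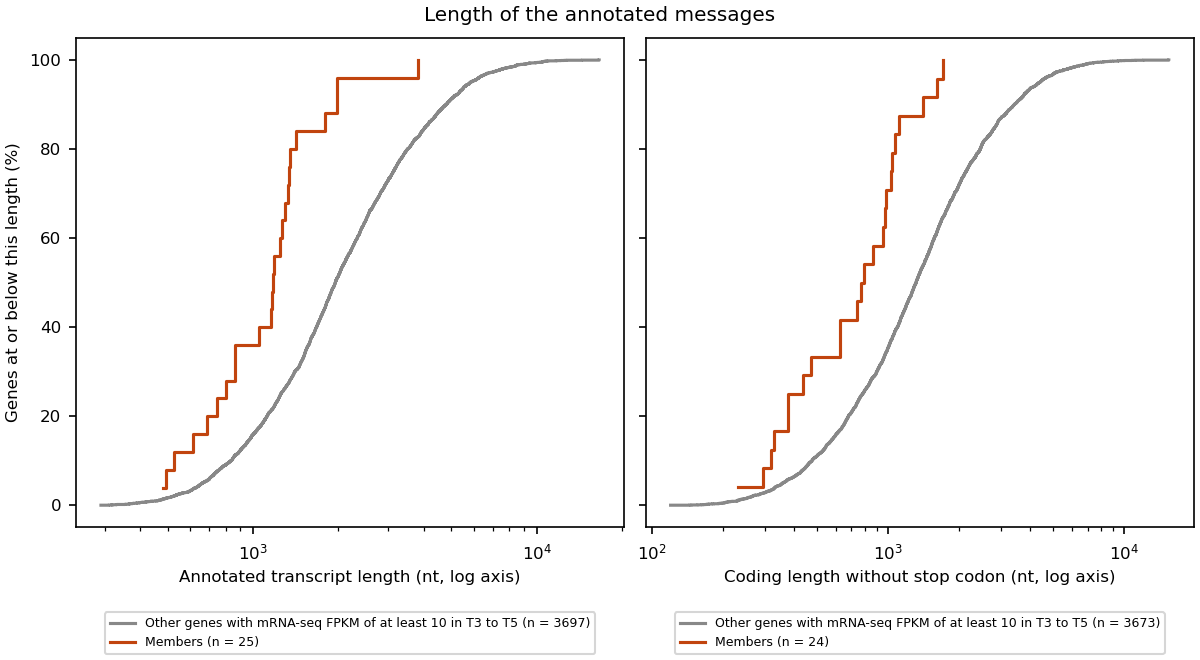
Share of genes (%) at or below a given annotated transcript length (left) or coding length without the stop codon (right), on log axes in nt, for the members and for the other genes with an mRNA-seq FPKM of at least 10 in T3, T4 and T5. The curve of the members lies to the left of the other genes, with medians of 1172 against 1949 nt and 777 against 1314 nt.

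The mRNA-seq level over T3 to T5 was part of the choice, as the filter and as the denominator of the ratios, and is given as a description. The median of the members for the mean level over these timepoints was 69.7 FPKM, against 36.0 FPKM for all 3931 genes, and 20 of 25 lay above the latter. Over time, 10 of 25 members were over 2-fold higher in T6 than in T3 mRNA-seq and 1, CG10516, was over 2-fold lower, whereas 855 and 824 of the 3931 genes were. Besides the 6 respiratory messages, these 10 were CG4957 (4.81-fold), P32 (4.32-fold), CR42491 (4.28-fold) and CG3209 (2.39-fold). The lowest changes, after CG10516, were those of CG9267 (0.621-fold), Spase12 (0.838-fold), metl (0.856-fold) and dbe (0.895-fold).

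Overlap with other genes touched 13 of the 25 members. On the opposite strand, 12 members (48.0%) shared at least part of an exon with another annotated gene, against 39.3% of the 3697 other genes, and 1 member, CR42491, did so on the same strand. In T6, 11 of these 13 members were below 0.5, against 36.6% of 2593 genes with a shared exon. Of the 12 members without a shared exon, 5 (41.7%) were below 0.5 in T6, against 42.7% of 4177 such genes. The members were thus near the share of all such genes in T6, which include genes below the expression threshold in T3 to T5. In T2, 4 of 10 members without a shared exon were below 0.5, against 13.2% of 2837 such genes. The part of the overlaps in the ratios was not tested.

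The gene lists beside those of the respiratory chain and the secretory pathway held no member. Of 21 lists, 19 had none, and 2 of these had no gene above the expression threshold. Since members made up 0.636% of the 3931 genes, few or none would fall in lists of this size, such as the proteasome (35 genes above the threshold), and nothing is read from their absence.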

How the data were processed

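Embryo RNA of 6 timepoints was measured by miCLIP and mRNA-seq, with 1 library each. The FPKM values were made by the authors and deposited as 1 table of 14977 genes. Adaptors had been cut by the authors with Flexbar and miCLIP duplicates collapsed with pyCRAC. The authors mapped reads to genome release 5.45 with Subread-align, counted them with featureCounts and then used the DESeq package for normalization. Gene lengths, versions and the strand setting of the counting are not given in the sources used here.

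Ratios of miCLIP to mRNA-seq were taken with a pseudocount of 1 FPKM, and values past 0.5 or 2 were counted among genes with an mRNA-seq FPKM of at least 10. Read numbers were inferred from the smallest increments of the values for 13982 genes, and 995 genes had no read. This step was tested on simulated data. Intervals are Clopper-Pearson at 95%, and the floor for 0 reads is 3. Gene names, and the lengths of the canonical transcript of each gene, are those of the BDGP6.54 annotation, in which 14785 symbols had a match and 192 had none. Protein lengths are coding lengths divided by 3. No coordinates are given, since that assembly is newer than release 5.45.

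The members and the gene lists were chosen with earlier results of these data known. Named genes are the members lowest or highest in ratio, level, length and change over time, those nearest the threshold, and the most abundant of each list with at least 3 members. They cover 23 of 25 members, and CG7970 and CG10638 are described besides. Python 3.11.15 was used with numpy 2.4.6, pandas 2.3.3 and scipy 1.17.1. Alternatives were other pseudocounts, scalings, thresholds and denominators. Members without shared exons and a rule on counting intervals were added after the data were seen.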

Additional observations from a re-analysis of the deposited data

Results flagged for a closer look

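In 3 members the ratio of miCLIP to mRNA-seq was above 2 in a maternal timepoint with an mRNA-seq FPKM of at least 10. It was below 0.5 in each of T3, T4 and T5. These were Updo in T1, with a ratio of 2.72, CHOp24 in T1, with 2.10, and P32 in T2, with 2.43. CG10516 in T1 (2.03) and CR42491 in T2 (2.21) were also above 2, on mRNA-seq levels below 10 FPKM. Among all genes with an mRNA-seq FPKM of at least 10, 18.3% were above 2 in T1 and 6.29% in T2. The counts of the members, 2 of 23 in T1 and 1 of 22 in T2, were below these shares. The members were chosen for low ratios from T3 to T5, so the later side of the contrast between timepoints is set by the choice. A ratio above 2 is a log2 ratio above 1, and these were 1.44 for Updo, 1.07 for CHOp24 and 1.28 for P32. Bringing the libraries to a common sum shifted the median log2 ratio by -0.55 in T1 and -0.39 in T2. Under that scaling the ratios of Updo, CHOp24 and P32 were no longer above 2. With 1 library per assay and timepoint the difference between timepoints was not tested.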

How the results depend on the processing

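The number of members depended on the rule. It was 91 when libraries were brought to a common sum of 1000000, 6 with ratios centred on their median, 60 with an mRNA-seq FPKM of at least 1, 11 with at least 50, 1 with a ratio below 0.33, 278 with a ratio below 0.67, and 7 with the whole counting interval below 0.5. Without a pseudocount it was 33, and 30 with no symbol dropped. All 25 members were also found by the rules with scaling, with an mRNA-seq FPKM of at least 1 and without a pseudocount. Scaling shifted the median log2 ratio of all genes by -0.55 in T1, -0.39 in T2 and 0.10 in T6. Under scaling, 14 of 22 members were below 0.5 in T2, against 25.5% of genes, and 11 of 23 in T1, against 36.2%. With centred ratios, 12 of 25 were below 0.5 in T6, against 27.8% of genes, and 8 of 22 in T2, against 11.5%. Over these and the other settings, the number of members below 0.5 ran from 12 to 16 in T6, from 8 to 14 in T2 and from 8 to 11 in T1. Among members without a shared exon it was 5 of 12 in T6, 4 of 10 in T2 and 4 of 11 in T1, which holds fewer members by construction. The median protein length was 259 residues over all members and 209 over those below 0.5 in T6. For single members in T6, a log2 ratio beyond 1 in size could not change sign under scaling or centring, whose shifts were smaller than 1. None did so under a pseudocount of 0.1, no pseudocount or T5 mRNA-seq as the denominator. Smaller ratios did change sign under centring, for CG14688 (-0.49 to 0.12), sds22 (-0.24 to 0.36) and Bet5 (-0.11 to 0.49). With T5 mRNA-seq those of CG9267 (0.64 to -0.21), CG10516 (0.15 to -0.56) and CHOp24 (0.12 to -0.43) changed sign. Centring moved all 25 outside their counting intervals, and T5 mRNA-seq moved 20. The libraries of both assays are paired by timepoint, but no test over these 6 pairs was made, since 3 of them chose the members and the timepoints are different stages and not replicates. Depth limits the lowest values, since 6 miCLIP values of the members were 0.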

Other observations

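The genes dropped by symbol had low T6 ratios with 1 exception. RpL11, RpL27 and RpL32, which encode proteins of the large ribosomal subunit, had T6 ratios of 0.305, 0.230 and 0.362, and mRpS31, of the mitochondrial ribosome, had 0.282. The small nucleolar RNA snoRNA:Psi18S-531 had a ratio of 2.40 in T6, from 187 miCLIP and 257 mRNA-seq reads.

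The 3 genes just outside the threshold had unlike ratios in the maternal timepoints. CG8993, at 0.501 in T3, had ratios of 5.17 in T1 and 6.52 in T2, where its mRNA-seq level was 8.07 FPKM. CG2453, at 0.503 in T3, was listed at 0 in T1 miCLIP and had a ratio of 1.61 in T2. FKBP59, at 0.502 in T4, had ratios of 0.662 in T1 and 1.10 in T2.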
